A study of Mus musculus with 90 samples.

Results

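Keratins and epithelial adhesion genes were followed through chronic IFNγ exposure in CT26 cells, a mouse colon carcinoma line, and YUMM2.1 cells, a mouse melanoma line. The set held 9 genes of the 53697 in the count table, the keratins Krt20, Krt7, Krt8, Krt18, Krt19 and Krt80 and the adhesion genes Epcam, Cdh1 and Tjp1. The genes were selected by name with their levels over the 15 groups of each line known, above all the level of Krt20 in CT26 2 h after rechallenge, so that level is given as a description and was not tested. The assay was 3′ digital gene expression, in which a transcript is read near its 3′ end only, with 45 samples per line. Each line had 15 groups of 3 replicates, labelled as triplicate experiments of 1 established cell line. Control cultures received BSA in place of IFNγ (0 IU/mL) and were harvested at 0, 1, 2 and 3 weeks. Naive cells, with no earlier exposure, received 50 IU/mL IFNγ for 2 h or 24 h at 0 weeks. Chronically exposed cells were grown in 50 IU/mL IFNγ for 1, 2 or 3 weeks. They were harvested either with no rechallenge (NR) or after a rechallenge with fresh IFNγ that lasted 2 h or 24 h. All groups were grown in RPMI-1640 medium with serum, and the labels name no other agent and no allele.

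Keratins are the intermediate filament proteins of epithelial cells, and a filament is built from pairs of a type I and a type II keratin. Krt18, Krt19 and Krt20 are type I keratins, and Krt7, Krt8 and Krt80 are type II keratins. Krt8 and Krt18 form the pair of simple epithelia such as the gut lining, and Krt20 is a keratin of differentiated intestinal cells that is used to trace tumours of the colon. Cdh1 encodes E-cadherin, the adhesion receptor of adherens junctions, Epcam encodes an epithelial surface adhesion molecule, and Tjp1 encodes ZO-1, a scaffold of tight junctions that many non-epithelial cells also make. The best-known targets of IFNγ, such as Irf1 and the guanylate-binding proteins, are not keratins.

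The libraries held 295157 to 2205285 counts each in CT26 and 274719 to 3161276 in YUMM2.1. Levels are given as CPM, the count of a gene scaled to the TMM-adjusted library total, so a gene at 1 CPM had a few counts in a sample at most. Replicate 3 of the 1-week and of the 3-week non-rechallenged group of CT26, and replicate 3 of the 3-week non-rechallenged group of YUMM2.1, held less than 25% of the median total of their line. Of 10 markers of colon epithelium, 6 were at 0 counts in all 45 CT26 samples (Cdx1, Vil1, Muc2, Hnf4a, Epcam and Cdh1), and Krt20 was the only one with a median of at least 5 CPM. In YUMM2.1, the melanocyte factor Sox10 had a median of 27.1 CPM, whereas Tyrp1 was at 0 counts and Mlana had 1 count in all 45 samples. Of the leukocyte markers, Ptprc had 67 counts in 31 of the 45 CT26 samples, at a median of 0.907 CPM, and Cd3e, Adgre1 and Itgam had 0 counts in all 45.

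The genes lie on 5 chromosomes of GRCm38 in the GENCODE M21 annotation. Krt20 (ENSMUSG00000035775.2) occupies chr11:99428403-99438150 on the minus strand, in the type I keratin cluster, with 702659 bases between it and Krt19 at chr11:100140810-100148665. The type II keratins lie on chromosome 15, with Krt80 at chr15:101347444-101370162, Krt7 at chr15:101411043-101430313 and Krt8 at chr15:101996698-102004482. Krt18, at chr15:102028180-102032027, is the type I keratin that sits apart from its cluster, 23697 bases from Krt8. Epcam is at chr17:87635979-87651129, Cdh1 at chr8:106603351-106670246 and Tjp1 at chr7:65296165-65527781. No annotated gene overlaps Krt20, Krt18, Krt19, Epcam or Cdh1. Genes overlapping Krt7, Krt8, Krt80 and Tjp1 had 0, 1, 21 and 14 counts over all 90 samples.

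The promoters of Krt20, Krt18 and Krt8 are shown because Krt20 was the gene whose level set the 2 h rechallenge groups of CT26 apart, and because Krt18 was counted in every CT26 sample while its neighbour and partner Krt8 was almost absent. Each runs from 250 bases before to 50 bases after the start site in RefSeq, on GRCm38.p6, and is written 5′ to 3′ on the gene's strand. Promoter sequences were matched for 6 of the 9 genes, and those of Krt19, Krt80 and Cdh1 are named only. Both strands were searched for the core of the interferon-stimulated response element, AP-1 (TGANTCA), TEAD (GGAATG) and the CArG box, and capitals mark the matches, which were all to TEAD.

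Krt20, chr11:99438104-99438403, minus strand: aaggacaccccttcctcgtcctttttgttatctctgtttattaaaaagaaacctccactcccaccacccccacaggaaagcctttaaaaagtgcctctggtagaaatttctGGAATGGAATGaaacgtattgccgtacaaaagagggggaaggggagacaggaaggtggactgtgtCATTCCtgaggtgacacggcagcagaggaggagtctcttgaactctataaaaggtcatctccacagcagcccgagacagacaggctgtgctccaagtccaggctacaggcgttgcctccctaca

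Krt18, chr15:102027966-102028265, plus strand: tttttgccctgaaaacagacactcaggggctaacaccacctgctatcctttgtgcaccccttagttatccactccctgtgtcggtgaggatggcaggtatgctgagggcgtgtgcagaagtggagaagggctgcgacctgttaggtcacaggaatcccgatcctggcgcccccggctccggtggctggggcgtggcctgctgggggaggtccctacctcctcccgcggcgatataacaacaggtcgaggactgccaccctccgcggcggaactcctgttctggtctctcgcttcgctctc

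Krt8, chr15:102004293-102004592, minus strand: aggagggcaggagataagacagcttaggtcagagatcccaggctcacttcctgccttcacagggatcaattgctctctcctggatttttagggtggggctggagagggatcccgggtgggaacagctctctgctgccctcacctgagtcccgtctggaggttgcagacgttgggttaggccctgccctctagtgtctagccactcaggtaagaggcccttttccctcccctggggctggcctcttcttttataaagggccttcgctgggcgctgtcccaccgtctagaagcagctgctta

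The Krt20 promoter held 3 TEAD matches, starting at -139, -134 and -74 from the start site, of which the first and second share 1 letter and the other is on the opposite strand. At least 1 TEAD match was present in 14.7% of 32851 promoters of the same length, and at least 3 in 0.131%, a share that was counted after the matches in Krt20 were seen. Krt18 and Krt8 had no match to any of these 4 motifs. None of the 6 promoters held an interferon element core, AP-1 or CArG match, against 3.44%, 7.81% and 1.63% of all promoters. E-boxes (CANNTG) were found 1 time in Krt18 and 3 times in Krt8 and were not found in Krt20, and 72.3% of all promoters held at least 1. A match is a description of the letters and says nothing of binding.

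Krt20 was counted in every CT26 sample, and its level stood apart in CT26 2 h after rechallenge at 2 and 3 weeks. In bulk samples, a change in the share of cells that make a transcript and a change in RNA per cell cannot be told apart. In the control cultures at 0 weeks it was 45.4, 50.0 and 48.1 CPM, from 64, 80 and 81 counts. After 3 weeks of IFNγ without rechallenge it was 47.4, 46.2 and 36.8 CPM, from 54, 41 and 11 counts. At 2 h after rechallenge at 3 weeks it was 113.9, 97.7 and 106.4 CPM, from 142, 88 and 83 counts. All 3 rechallenged samples lay above all samples without rechallenge, and the lowest of them was 50.3 CPM above the highest of the others. The means were 106.0 ± 8.07 and 43.5 ± 5.82 CPM (SD, n = 3 each), a 2.44-fold ratio and a log2 fold change of 1.24 (SE 0.17) in the edgeR fit. Against the 3-week control cultures, at 60.4 ± 5.03 CPM (SD, n = 3), the ratio was 1.76, again without overlap. Replicate 3 without rechallenge was a shallow library of 295157 counts, and without the shallow libraries the log2 fold change was 1.19.

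At 2 weeks the same order was seen at a smaller size. The samples without rechallenge were at 46.5, 50.3 and 52.0 CPM, and those at 2 h after rechallenge were at 83.0, 74.6 and 91.1 CPM. The groups did not overlap, with a ratio of the means of 1.67 and a log2 fold change of 0.74 (SE 0.15). At 1 week the samples without rechallenge were at 39.9, 51.2 and 37.9 CPM and those at 2 h were at 52.8, 32.7 and 53.1 CPM. These groups overlapped, and the lowest sample of all 6 was a rechallenged one. The log2 fold change at 1 week was 0.10 (SE 0.18), and it changed sign without replicate 1 or without replicate 3. These 3 comparisons of Krt20 were the values that chose the genes and have no test. After 2 h of rechallenge, 0.376%, 0.305% and 0.0117% of genes had an adjusted p below 0.05 by edgeR at 1, 2 and 3 weeks. These shares are over all 8516 genes tested, Krt20 included, so they are no background for its values.

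**Figure D1:**
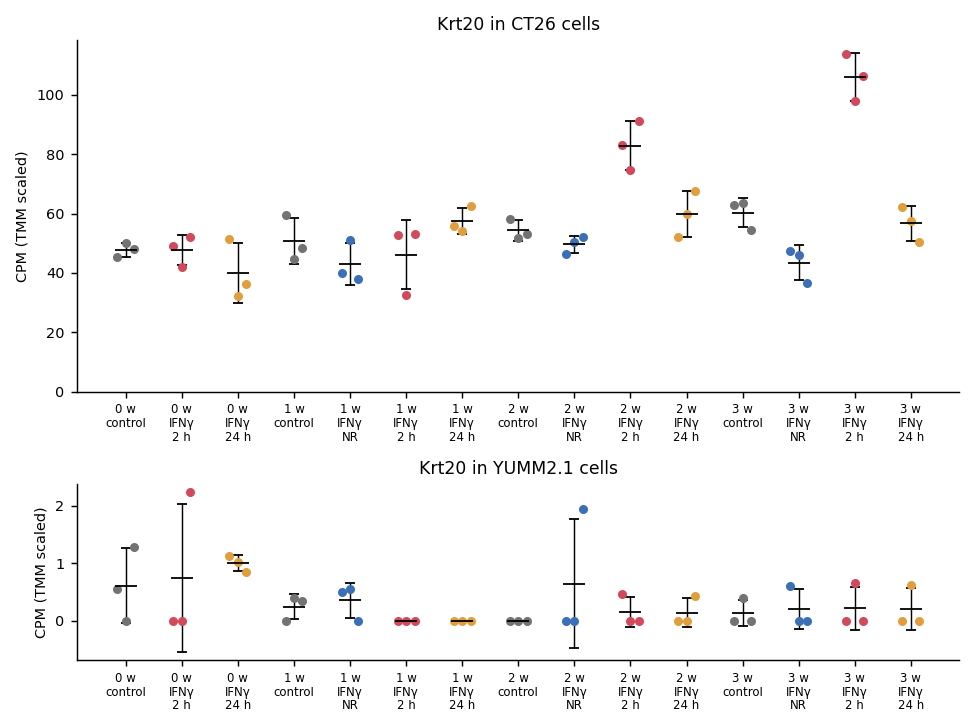
Krt20 level in CPM (TMM scaled, vertical axis) in the 15 groups of CT26 (upper panel) and of YUMM2.1 (lower panel, on its own axis), with points for the 3 samples, a horizontal line for the mean and bars for the SD, and NR for no rechallenge. The 6 CT26 samples at 2 h of rechallenge after 2 and 3 weeks lie between 74.6 and 113.9 CPM, above the highest of the 39 other CT26 samples at 67.8 CPM.

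Over the 15 CT26 groups, the mean Krt20 level ran from 40.1 ± 10.1 CPM in naive cells after 24 h of IFNγ to 106.0 ± 8.07 CPM at 2 h of rechallenge after 3 weeks (SD, n = 3 each). In that order each of the 12 lowest groups overlapped the next one in its samples, up to the 3-week controls at 60.4 CPM. The 2-week and 3-week groups at 2 h of rechallenge came last and overlapped neither the group below nor each other. The 39 other CT26 samples had a median of 51.5 CPM and ranged from 32.3 to 67.8 CPM.

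At 24 h of rechallenge, the Krt20 level at 3 weeks was 62.2, 57.6 and 50.3 CPM. All 3 samples were above every sample without rechallenge, and they overlapped the 3-week controls at 63.0, 63.5 and 54.6 CPM. The log2 fold changes against no rechallenge were 0.40 (SE 0.18) at 1 week, 0.26 (SE 0.16) at 2 weeks and 0.32 (SE 0.18) at 3 weeks. None passed edgeR's quasi-likelihood test after Benjamini-Hochberg adjustment over all genes (adjusted p = 0.426, 0.776 and 0.938), and 1.32%, 0.658% and 0% of tested genes did. At 3 weeks, 439 of all tested genes had an unadjusted p below 0.05 at 24 h by edgeR, and DESeq2 called 0. The 2 h comparisons that chose the genes share the samples without rechallenge with these comparisons and with the chronic ones.

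Chronic IFNγ without rechallenge was compared with the control culture of the same week. Krt20 had log2 fold changes of -0.22 (SE 0.18), -0.13 (SE 0.16) and -0.41 (SE 0.17) at 1, 2 and 3 weeks. The 3-week controls were at 63.0, 63.5 and 54.6 CPM and the treated samples at 47.4, 46.2 and 36.8 CPM. The treated samples lay below all 3 controls at 3 weeks, but the difference did not pass the adjustment (adjusted p = 0.142 from edgeR). With library totals as the only scaling, which moved the median of all genes by 0.203 on the log2 scale in this comparison, its value was -0.21. Of all tested genes in CT26, 0.728%, 1.67% and 7.23% passed at 1, 2 and 3 weeks.

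In naive CT26 cells, Krt20 differed from control by less than its error at 2 h, where the samples were at 49.0, 42.1 and 52.1 CPM (log2 fold change -0.0013, SE 0.16, 95% interval -0.32 to 0.31). At 24 h the samples were at 51.5, 32.3 and 36.4 CPM, a log2 fold change of -0.29 (SE 0.18, adjusted p = 0.567 from edgeR). Of all tested genes, 0.235% passed at 2 h and 2.04% at 24 h. In the control cultures, the log2 fold change of Krt20 from 0 weeks was 0.07, 0.19 and 0.33 at 1, 2 and 3 weeks. The 3-week controls lay above the 0-week controls in all 3 samples, with an adjusted p of 0.394 from edgeR. Control cultures over time had 0.0117%, 0.247% and 0.916% of genes past the threshold.

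The 2 h values of Krt20 are set beside those of interferon target genes in the same cells. Of the Krt20 values, the 3 after rechallenge chose the gene set. Irf1, a transcription factor induced early by IFNγ, rose in CT26 at 2 h by a log2 fold change of 3.46 (SE 0.22) in naive cells, 1.78 (SE 0.21) after 1 week and 1.77 (SE 0.18) after 2 weeks, and its value after 3 weeks was 0.46 (SE 0.18, adjusted p = 0.577 from edgeR). Gbp2, a guanylate-binding GTPase, had values of 2.31, 1.19, 0.91 and 0.43 over the same 4 comparisons, and Igtp, an immunity-related GTPase, had 3.19, 1.55, 1.34 and 0.62. Both passed the test in naive cells and at 1 and 2 weeks, and neither passed at 3 weeks (adjusted p = 0.506 and 0.0856 from edgeR), where DESeq2 called Igtp (adjusted p = 0.00564). Gbp2 did not pass at 1 or 2 weeks without replicate 1 (adjusted p = 0.134 and 0.184 from edgeR). Krt20 had -0.0013, 0.10, 0.74 and 1.24. The difference in order between Krt20 and these genes was not tested. Irf1 and Junb were named after their values were seen.

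Of 12 interferon genes tested in CT26, 5 rose in naive cells at 2 h, 5 after 1 week, 4 after 2 weeks and 0 after 3 weeks by edgeR. At 3 weeks 4 of the 12 had an unadjusted p below 0.05, and DESeq2 called 1. The rechallenge values of these genes start from a raised level. Without rechallenge their median log2 fold change over the control was 2.27, 2.68 and 3.78 at 1, 2 and 3 weeks. In YUMM2.1 the 2 h values after 3 weeks were 2.78, 2.02 and 2.27 for Irf1, Gbp2 and Igtp. Among 9 immediate-early genes tested in CT26, which are induced quickly by growth factor and stress signals, 1 rose in a 2 h comparison, Junb at 2 weeks. Junb, an AP-1 subunit, was at 21.4, 23.7 and 26.0 CPM without rechallenge at 2 weeks and at 70.8, 49.4 and 65.8 CPM at 2 h (log2 fold change 1.37, SE 0.24, adjusted p = 0.000510 from edgeR), and it did not pass without replicate 1 (adjusted p = 0.472). Its value at 3 weeks was 1.09 (SE 0.28, adjusted p = 0.206 from edgeR).

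**Figure D2:**
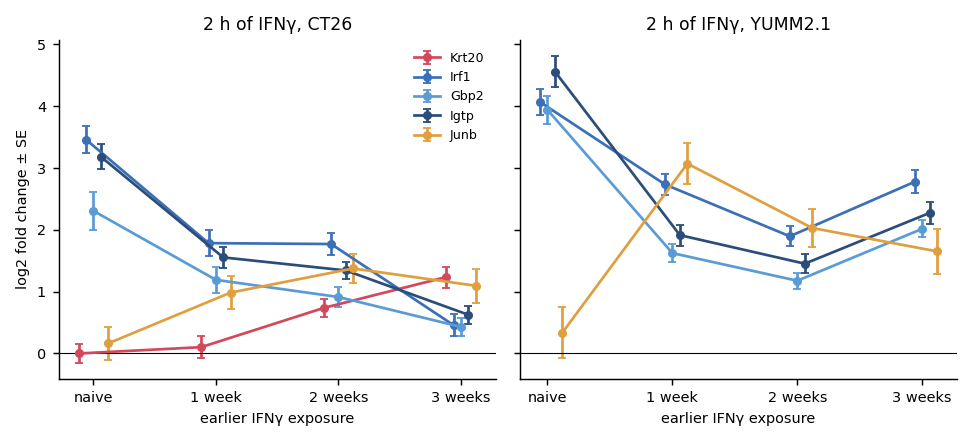
log2 fold change (± SE) after 2 h of IFNγ (vertical axis) in naive cells and after 1, 2 and 3 weeks of exposure (horizontal axis) for Krt20, the interferon genes Irf1, Gbp2 and Igtp and the immediate-early gene Junb, in CT26 (left) and YUMM2.1 (right, where Krt20 was not tested). In CT26, Krt20 goes from -0.0013 to 1.24 while Irf1 goes from 3.46 to 0.46. The 3 Krt20 values after rechallenge chose the gene set and were not tested.

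Markers of colon epithelium and of fibroblasts were summed in the same groups. The 7 colon markers that are not in the gene set summed to at most 2.25 CPM without rechallenge at 3 weeks and to at most 4.81 CPM at 2 h. The fibroblast list of 6 genes summed to 56.9 to 143.2 CPM without rechallenge and to 79.5 to 174.4 CPM at 2 h, so the ranges overlapped. The part of other cells in the Krt20 level was not tested.

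In YUMM2.1, Krt20 was close to the limit of detection. It had 24 counts over 45 samples, with 28 samples at 0, and it did not pass the filter on low counts. The highest sample was at 2.23 CPM, from 3 counts in naive cells at 2 h. At 2 h of rechallenge it had 0, 0 and 0 counts at 1 week, 1, 0 and 0 at 2 weeks, and 0, 1 and 0 at 3 weeks. No difference between YUMM2.1 groups could be read at this depth.

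Krt18, the type I partner of Krt8, was counted in all 45 CT26 samples, at 7.78 to 26.5 CPM with a median of 16.3 CPM, from 6 to 49 counts each. In the 0-week controls it was at 13.5, 14.99 and 13.1 CPM and in the 1-week controls at 18.3, 26.5 and 23.9 CPM. These groups did not overlap, with a log2 fold change of 0.74 (SE 0.26) that did not pass the adjustment (adjusted p = 0.435 from edgeR). At 3 weeks, it was at 11.4, 19.2 and 20.1 CPM without rechallenge and at 10.4, 12.2 and 18.0 CPM at 2 h. Over the 14 comparisons, its log2 fold change ran from -0.40 to 0.74 and none passed. Its 2 h log2 fold change at 3 weeks was -0.27 (SE 0.33, 95% interval -0.94 to 0.41).

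Krt8, the type II partner, had 4 counts in the 45 CT26 samples together and 0 in YUMM2.1. The 4 counts came 1 each from 4 samples, and the pooled level was 0.0707 CPM in CT26. Krt18 had 945 counts in the same CT26 libraries. A pooled count of 0 in YUMM2.1 allows up to 0.0429 CPM by a limit of 3 counts, which covers counting error only. A 3′ count depends on the annotated transcript end as well as on the transcript's level, and its part in the low Krt8 count was not tested.

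Krt7, a type II keratin of simple and glandular epithelia, had 165 counts in CT26 and 73 in YUMM2.1, at medians of 2.88 and 1.00 CPM. With 0 to 12.6 CPM per CT26 sample its replicates were wide apart. After 1 week of IFNγ without rechallenge the CT26 samples were at 2.14, 8.09 and 12.6 CPM, and at 2 h they were at 1.41, 3.63 and 1.68 CPM. The samples overlapped between these groups. The log2 fold change of Krt7 ran from -1.43 to 1.00 over the 14 comparisons with a median SE of 0.78, and none passed (lowest adjusted p = 0.628 from edgeR).

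Krt80, a type II keratin widely made in epithelia, had 123 counts in CT26 and 5 in YUMM2.1 and did not pass the filter in either line. CT26 samples had 0 to 10 counts. At 3 weeks the samples at 2 h of rechallenge were at 3.21, 6.66 and 6.41 CPM, those without rechallenge at 2.63, 3.38 and 0 CPM and those at 24 h at 0, 0 and 0.883 CPM. With 4, 6 and 5 counts against 3, 3 and 0, the 2 h and non-rechallenged samples overlapped in CPM. Krt19, a type I keratin of gut and duct epithelia, had 0 counts in CT26, which allows up to 0.0531 CPM over the pooled libraries, and 1 count in YUMM2.1.

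The adhesion genes fell into those without counts and Tjp1. Epcam had 0 counts in all 90 samples. Cdh1 had 0 counts in CT26 and 2 in YUMM2.1, 1 each from 2 weeks of IFNγ without rechallenge and from 2 h of rechallenge at 3 weeks. Neither gene could be compared between groups at this depth.

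Tjp1 was counted in every sample of both lines, at a median of 9.03 CPM in CT26 and 9.81 CPM in YUMM2.1. After 3 weeks of IFNγ in CT26 it was at 15.8, 18.0 and 16.7 CPM, against 10.6, 9.60 and 10.8 CPM in the 3-week controls. The groups did not overlap, but with 5 to 22 counts per sample the log2 fold change of 0.69 (SE 0.43) did not pass (adjusted p = 0.354 from edgeR, with 7.23% of all genes called in this comparison). Its log2 fold change ran from -0.68 to 0.69 in CT26 and from -0.26 to 0.51 in YUMM2.1 over the 14 comparisons of each line.

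**Figure D3:**
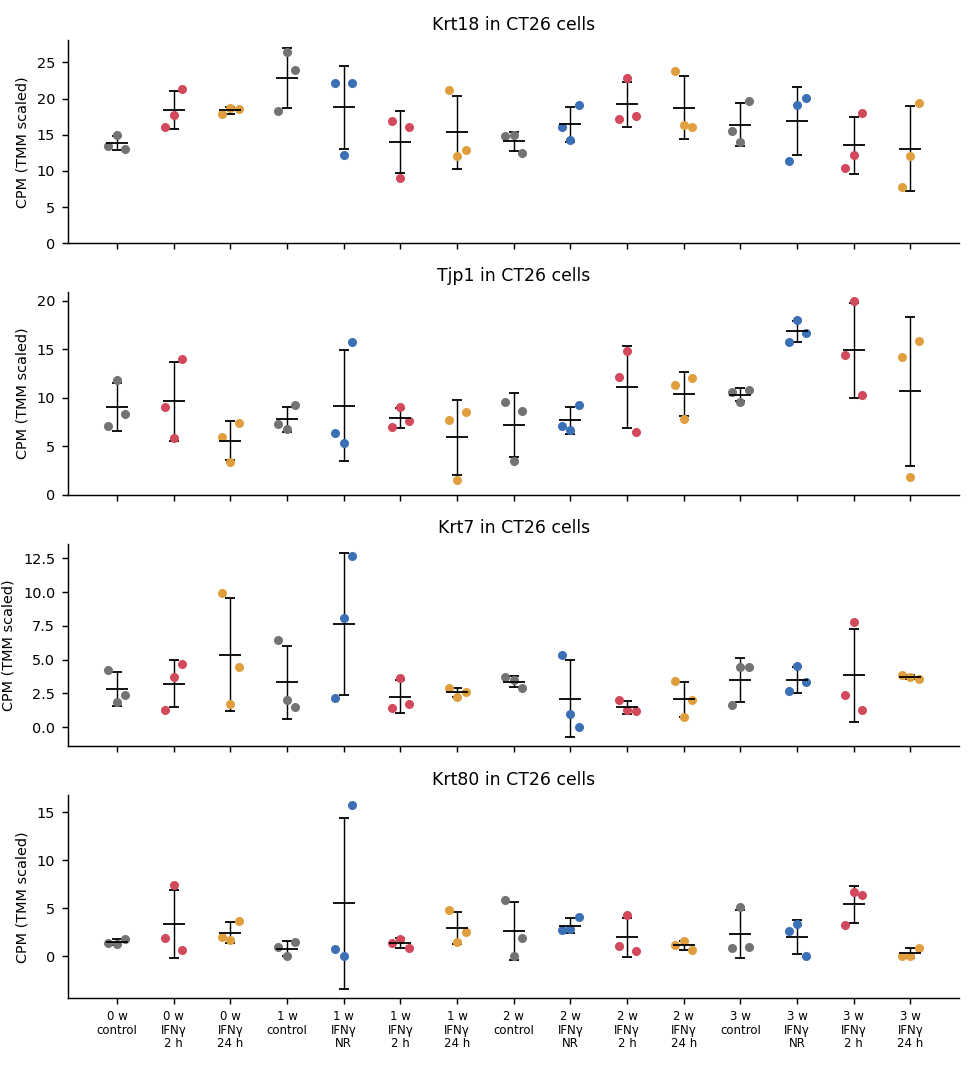
Level in CPM (TMM scaled, vertical axes) of Krt18, Tjp1, Krt7 and Krt80 in the 15 CT26 groups, with points for the 3 samples, a horizontal line for the mean and bars for the SD, and NR for no rechallenge. Krt18 lies between 7.78 and 26.5 CPM, and the Tjp1 samples after 3 weeks of IFNγ without rechallenge, at 15.8 to 18.0 CPM, lie above the 3-week controls.

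In CT26, 4 of the 9 genes passed the filter on low counts (Krt20, Krt18, Krt7 and Tjp1), and in YUMM2.1 only Tjp1 did. Apart from the 2 h rechallenge of Krt20 in CT26, edgeR called 0 of 53 comparisons of these genes in CT26, of which 4 had an unadjusted p below 0.05, and DESeq2 called 0, with 2 unadjusted. The 4 were Krt20 in the 3-week chronic comparison, at 24 h of rechallenge after 1 week and in the 3-week controls, and Krt18 in the 1-week controls. In these comparisons, in the same order, 1885, 797, 1025 and 686 of all 8516 genes had an unadjusted p below 0.05 by edgeR. In YUMM2.1, edgeR and DESeq2 each called 0 of 14 comparisons of Tjp1, with 0 unadjusted. Over all 9589 genes of YUMM2.1, 0.24% and 0.886% were called in naive cells at 2 h and 24 h, and 0.73%, 1.12% and 0.97% in the chronic comparisons at 1, 2 and 3 weeks. After 2 h of rechallenge the shares in YUMM2.1 were 0.615%, 0.428% and 1.08% at 1, 2 and 3 weeks, after 24 h they were 1.42%, 0.615% and 0%, and in the controls over time they were 0.073%, 0.0209% and 0.521%. At 24 h of rechallenge after 3 weeks, 351 genes of YUMM2.1 had an unadjusted p below 0.05 by edgeR and DESeq2 called 1.

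**Figure D4:**
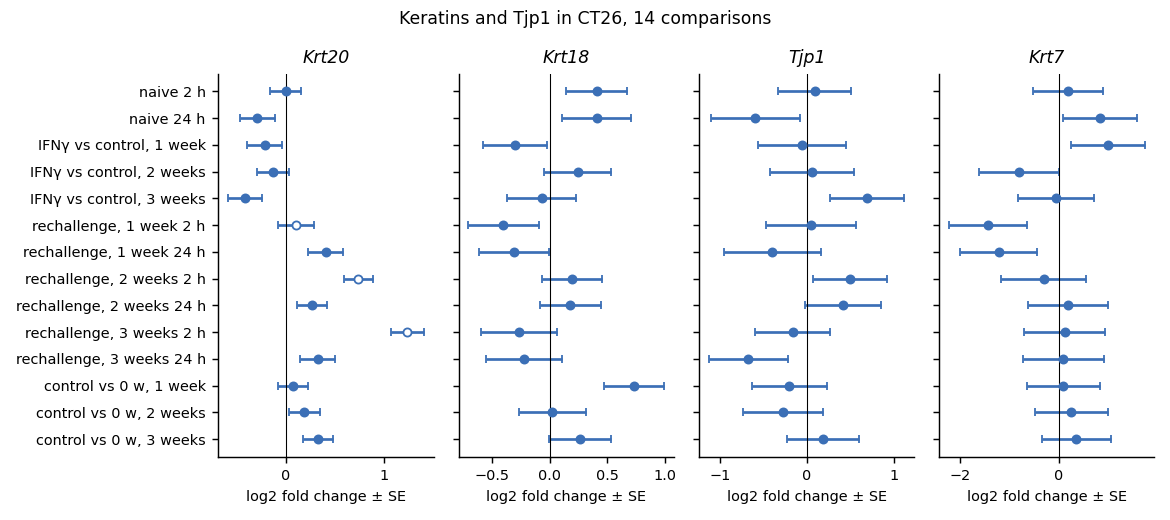
log2 fold change (± SE, horizontal axes, each gene on its own scale) of Krt20, Krt18, Tjp1 and Krt7 in the 14 CT26 comparisons (rows). Open circles are the 3 values of Krt20 that chose the genes and were not tested, and none of the filled circles passed the test.

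Krt20 and Krt18 were counted in CT26 and were near or at 0 in YUMM2.1. In the 0-week controls Krt20 had 225 counts in CT26 and 3 in YUMM2.1, a 68.1-fold ratio of pooled levels (exact 95% interval 23.0 to 333 for counting error). Krt18 had 65 counts in CT26 and 0 in YUMM2.1, so it was at least 19.7-fold higher in CT26 by a limit of 3 counts over the group. Krt20, Krt18 and Krt7 entered the joint fit of the lines through CT26 alone, so their tests are not given here. Of 10339 genes in the joint fit, 46% passed between the lines. Tjp1, the 1 gene of the set that passed the filter in each line, did not pass, with a log2 fold change, CT26 over YUMM2.1, of 0.41 (SE 0.49, 95% interval -0.56 to 1.38, adjusted p = 0.521 from edgeR). Krt7, with 13 and 8 counts, had a ratio of 1.48 (exact 95% interval 0.567 to 4.11). Krt80, with 7 and 2 counts, had a ratio of 3.18 (exact 95% interval 0.605 to 31.3). Pooled over all 45 samples of each line, the ratio was 2.79 for Krt7 (exact 95% interval 2.11 to 3.73). For Krt80 it was 30.4 (exact 95% interval 12.7 to 95.3). These intervals cover counting error only and leave out the spread between replicates.

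**Figure D5:**
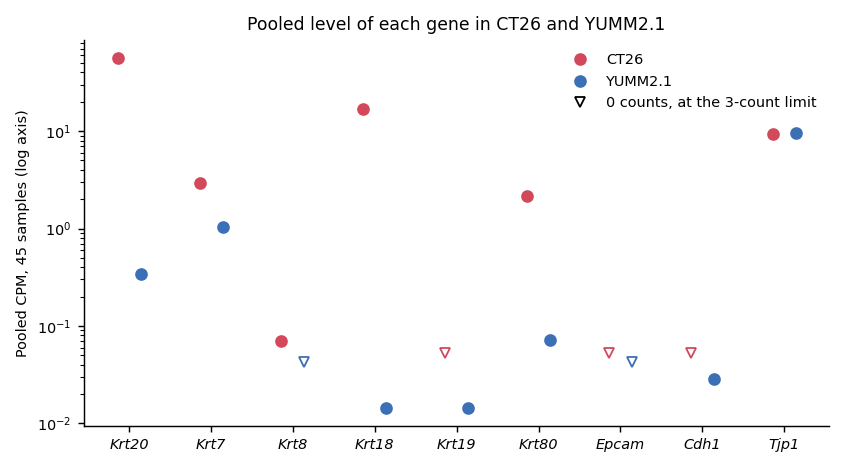
Pooled level of each gene over the 45 samples of CT26 (red) and of YUMM2.1 (blue), in CPM on a log axis, with open triangles at the 3-count limit where a line had 0 counts. Each gene should be read between the lines only. Krt20 is at 56.4 and 0.343 CPM and Tjp1 at 9.37 and 9.67 CPM.

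The chronic response of CT26 less that of YUMM2.1 could be read for Tjp1 alone, since the other genes did not pass the filter in YUMM2.1. For Tjp1 it was -0.54 (SE 0.72), 0.10 (SE 0.73) and 0.40 (SE 0.68) on the log2 scale at 1, 2 and 3 weeks. None passed (lowest adjusted p = 0.994 from edgeR), and 0.058%, 0.28% and 0.106% of all genes did.

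Other keratins were scarce in both lines. Of 49 other keratin genes in the table, 33 had 0 counts in CT26 and 31 in YUMM2.1, and Krt10 was the only one with a median of at least 5 CPM, at 7.38 CPM in CT26 and 15.5 CPM in YUMM2.1. Krt10, a type I keratin of the upper epidermis, did not pass in any comparison within either line. Keratinocyte markers Krt5, Krt14, Krt1 and Krt15 had 1, 5, 1 and 2 counts in the CT26 libraries.

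Desmosome and hemidesmosome genes anchor keratin filaments at the cell surface. Of 20 such genes, 4 were tested in CT26 and 5 in YUMM2.1. Those with a median of at least 5 CPM in CT26 were Plec, Dst, Itga6 and Pkp4, at 103.6, 58.2, 17.4 and 8.12 CPM. The desmosome genes Dsp, Dsg2, Pkp2, Pkp3 and Jup had 0, 5, 6, 11 and 161 counts in CT26. Pkp4, a plakophilin-related protein of junctions, rose in CT26 after 3 weeks of IFNγ by a log2 fold change of 1.45 (SE 0.37, adjusted p = 0.0102 from edgeR), from 4.09, 7.38 and 6.88 CPM in the controls to 17.6, 16.9 and 16.7 CPM. It did not pass with no filter on low counts (adjusted p = 0.0570) or without replicate 1, 2 or 3 (adjusted p = 0.154, 0.105 and 0.0520). In this comparison 7.23% of all genes were called. The median over the 4 tested genes was 0.75, beside 0.02 over all genes. In the control cultures their median log2 fold change from 0 weeks was -0.48, -0.35 and -0.47 at 1, 2 and 3 weeks. Over all genes it was 0.01, -0.02 and 0. Of 31 tight and adherens junction genes, 8 were tested in CT26. Afdn, the afadin scaffold of adherens junctions, rose at 3 weeks by 1.26 on the log2 scale (SE 0.36, adjusted p = 0.0209 from edgeR), from 5.73, 11.1 and 9.83 CPM to 22.8, 21.4 and 20.1 CPM. It did not pass without replicate 1 or 2 (adjusted p = 0.279 and 0.0873 from edgeR). The median over the 8 genes was 0.40, and it was -0.14 in the 3-week controls against 0 weeks. Pkp4, Afdn and Tjp1 had all 3 samples after 3 weeks of IFNγ above all 3 controls, and of these Tjp1 did not pass the test. The third treated sample of each was the shallow library, with 5, 6 and 5 counts. How many of all genes separated in this way was not counted. In this comparison 1885 of 8516 genes had an unadjusted p below 0.05 by edgeR.

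Among keratin partners and filament linkers, 11 genes were tested in CT26 and 1 fell, Ywhaz, a 14-3-3 protein, by 0.39 on the log2 scale at 2 weeks of IFNγ (SE 0.08, adjusted p = 0.00319 from edgeR). Ywhaz also fell by 0.32 in the control cultures at 3 weeks. In both comparisons it did not pass without any 1 of the replicate numbers (adjusted p from 0.0667 to 0.561) or with no filter on low counts (0.444 and 0.469), and at 2 weeks it did not pass with library totals as the only scaling (0.0783). Of all CT26 genes, 1.67% were called in the 2-week chronic comparison and 0.916% in the 3-week controls. Of 21 epithelial regulators, 4 were tested in CT26 and 2 in YUMM2.1, and none passed in any comparison. Grhl2, a transcription factor of epithelial junction genes, was at a median of 192.7 CPM in CT26 and 54.0 CPM in YUMM2.1, where its target Cdh1 was at 0 and 2 counts. Mesenchymal genes had a median of at least 5 CPM for 10 of 13 in CT26 and for 8 of 13 in YUMM2.1. All 13 had counts in CT26, but Tagln and Acta2 had only 1 and 16. Vim, the mesenchymal intermediate filament, had medians of 502.6 and 1069 CPM in CT26 and YUMM2.1. Of 10 tested in CT26, Sparc and S100a4 fell at 3 weeks of IFNγ, by 1.10 (SE 0.20) and 0.86 (SE 0.14) on the log2 scale (adjusted p = 0.000136 and 1.91e-05 from edgeR), and Fn1 fell by 0.37 at 2 weeks. Of all CT26 genes, 7.23% were called at 3 weeks and 1.67% at 2 weeks. Without replicate 1, Sparc did not pass (adjusted p = 0.110 from edgeR), and Fn1 did not pass without replicate 1, 2 or 3 (adjusted p from 0.179 to 0.453), with library totals as the only scaling (0.0714) or with no filter on low counts (0.475). In YUMM2.1, Sparc fell by 0.53 at 1 week and Fn1 by 0.68 at 2 weeks of IFNγ, and Fn1 also fell in the controls at 3 weeks by 0.87. Sparc did not pass there without replicate 1, 2 or 3 (adjusted p from 0.275 to 0.317) or with library totals as the only scaling (0.257), and Fn1 at 2 weeks did not pass without replicate 2 (adjusted p = 0.104). These lists were chosen with earlier results of these data known and have no test of their own.

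The genes most like Krt20 across CT26 were ranked by Pearson's r over the 15 group means of log2 CPM. The first 8 of 8515 were Galns (0.84), Prkg2 (0.84), Itga5 (0.83), Thbs2 (0.82), Dynap (0.81), Elmo2 (0.81), Pias3 (0.81) and Stx6 (0.80). Group means share libraries, depth and control cultures, so r is a description. Without the 2-week and 3-week groups at 2 h of rechallenge, over 13 means, r was 0.79 for Galns and Dynap but 0.43 for Pias3 and 0.37 for Stx6. Of the other genes of the set, Tjp1 had r of 0.40, Krt18 of -0.21 and Krt7 of -0.36 with Krt20.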

How the data were processed

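RNA of YUMM2.1 and CT26 cells, 90 samples in 30 groups of 3, was measured by 3′ digital gene expression. The authors deposited 1 table of raw counts per gene and sample, and their processing notes name Salmon 0.13.1 and mm10. Per the methods, tximport read the counts into R. Whether molecular identifiers were counted is not given in the sources used here. The study set aside a few samples as outliers, most of them of CT26, and does not name them. All samples were kept here, so those described may include some of these outliers. All 90 columns were matched to samples by title, and 0 were left unused. The 9 genes and the gene lists were chosen with earlier results of these data known.

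In R 4.3.3, edgeR 4.0.16 was run with filterByExpr by group, TMM scaling and quasi-likelihood tests from 1 model of the 15 groups per line, or over the 30 groups of both lines. P-values were adjusted by Benjamini-Hochberg over all tested genes, with a threshold of 0.05. They measure the spread between triplicates, which may be technical. CPM values were TMM scaled, and log2 CPM used a prior count of 2. The lists' named genes were up to 6 per list past the threshold in a chronic comparison, by size, with keratins at a median of at least 5 CPM and the 8 genes most like Krt20. Cldn6, Irf1 and Junb were named after their values were seen. Alternatives were DESeq2 1.42.0, library totals as scaling, no filter, only the compared groups, a replicate block, fits without replicate 1, 2 or 3, and fits without shallow libraries. Code was tested on simulated data. A few marker and motif results are not reported here.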

Additional observations from a re-analysis of the deposited data

How the results depend on the processing

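Apart from the 2 h rechallenge of Krt20, the counts of keratin and adhesion genes called did not change in any of 90 recomputed values over 9 alternatives, and no call outside it was gained or lost. Within each line all these counts were 0 in the main fit, so a call could only be gained. The only count above 0 was between the lines in the joint fit, for genes that entered it through CT26 alone. Of 612 recomputed fold changes, 53 changed sign, none of them of a called value, and 44 of these came from leaving out a replicate number. For Krt20 in CT26, the value in naive cells at 2 h, -0.0013 on the log2 scale, was 0.0135 with no filter on low counts and 0.0136 without shallow libraries, and ranged from -0.0617 to 0.107 when a replicate number was left out. The change in controls at 1 week, 0.07, was -0.0152 with library totals as the only scaling and ranged from -0.0577 to 0.181 without a replicate number. The 2 h rechallenge after 1 week, 0.10, ranged from -0.0815 to 0.424 in the same way. The 2 h values after 2 and 3 weeks ranged from 0.70 to 0.80 and from 1.18 to 1.32 without a replicate number, and from 0.72 to 0.76 and from 1.19 to 1.25 under the other alternatives. With the replicate number as a block, the counts of genes called were the same and no fold change of these genes changed sign. In 0 of 14 comparisons per line did all 3 same-numbered pairs correlate above 0.1. The correlations ran from -0.154 to 0.206 in CT26 and from -0.142 to 0.108 in YUMM2.1. Counting noise at this depth lowers such correlations, so they cannot show that the samples were unpaired. Of the 8 genes most like Krt20, 4 were among the first 8 by Spearman's rho and 3 over single samples. The cause of these shifts was not tested. Depth limits Krt7, Krt80 and Tjp1, which had at most 9, 10 and 31 counts per sample.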

Other observations

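Junction genes outside the set divided the lines. Cldn6, a claudin of embryonic epithelia, was at a median of 109.9 CPM in CT26 and had 0 counts in all 45 YUMM2.1 samples, at least 2600-fold higher by a limit of 3 counts over the pooled libraries. Cgnl1, a cingulin-like protein of junctions, was at a median of 13.3 CPM in CT26 and at 0 counts in YUMM2.1, at least 315-fold higher. Nectin3, an adhesion receptor of adherens junctions, had 0 counts in CT26 and a median of 8.05 CPM in YUMM2.1, at least 144-fold higher there. The catenins Ctnna1, Ctnnb1 and Ctnnd1, which link cadherins to actin, had medians of 181.3, 19.1 and 13.3 CPM in CT26 and 196.3, 43.5 and 22.1 CPM in YUMM2.1. Cdh2, N-cadherin, was at medians of 10.3 and 47.5 CPM, in libraries where Cdh1 had 0 and 2 counts.

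Cldn6 was the 1 tested junction gene that fell after 24 h of IFNγ in naive CT26 cells, by 0.63 on the log2 scale (SE 0.16, adjusted p = 0.0161 from edgeR). The controls were at 109.9, 114.3 and 121.2 CPM and the treated samples at 59.4, 76.4 and 82.5 CPM, without overlap. It did not pass without replicate 1 or 2 (adjusted p = 0.345 and 0.175 from edgeR). It was named after its values were seen, and 2.04% of all tested genes were called in this comparison.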
